A study of Mus musculus with 5 samples.

Results

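The genes described here encode subunits and assembly factors of respiratory complexes III, IV and V. They were chosen by name, as every gene whose symbol begins with Uqc, with Cox and a digit, or with Atp5, and that had a probe set carrying no other symbol. This gave 53 of the 19938 genes tested, of which 11 belonged to complex III, 25 to complex IV and 17 to complex V. Cox7c and Cox16 were left out because every probe set naming them also carried another symbol.

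RNA was measured in 2 cultures of Dicer-deficient mouse embryonic stem (ES) cells and 3 cultures of wild-type ES cells, 1 Affymetrix whole-transcript array each. ES cells are pluripotent cells of the early embryo, and Dicer is the ribonuclease that makes mature microRNAs. Cultures of both genotypes were asynchronous, had no feeder cells, and grew in equal parts of serum medium with LIF and of N2B27 medium with 2 kinase inhibitors. The labels name neither the strain, the cell line, the number of clones nor the way Dicer was removed, so loss of Dicer and any other difference between the cell lines cannot be told apart. The design text calls the cultures biological replicates, and p-values measure the spread between these arrays. Values are log2 signals as deposited, SDs are between arrays, and changes are Dicer-deficient minus wild type.

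Complex III passes electrons from ubiquinol to cytochrome c, complex IV passes them on to oxygen, and the protons pumped on the way drive complex V, the ATP synthase. Each complex joins subunits encoded in the nucleus, the subject here, with others encoded in mitochondrial DNA, which were not analysed here. Mouse ES cells hold immature mitochondria and make much of their ATP by glycolysis, and their respiration rises and falls with the pluripotent state.

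Dicer1 had signals of 7.20 and 6.84 on the Dicer-deficient arrays, against 8.84, 8.82 and 8.85 on the wild-type arrays (change -1.82, SE 0.112, adjusted p = 0.000129 in limma). The lower signal follows the labels, which do not say what was removed from the gene. The array medians lay between 5.39 and 5.45. All 8 ES cell markers examined, Pou5f1, Nanog and Sox2 among them, lay above 5.41, the median of all values, on every array. Esrrb and Tdgf1 of these were called lower in Dicer-deficient cells. Of 7 fibroblast markers 0 were called in either direction in limma. Postn, Lum and Dcn lay below that median on every array, and the other 4 lay above it on every array, with values up to 6.7. Of 8 trophectoderm markers Gata3, Krt8 and Krt18 were called higher, and the summed log2 signal of the list was 51.79 to 52.37 in Dicer-deficient cells and 48.75 to 49.67 in wild-type cells, with Cdx2 and Elf5 below the median everywhere. None of 7 primitive endoderm, 8 striated muscle or 7 male germ cell markers was called by limma. Of 4 neuronal markers Map2 was called higher, though it lay below the median of all values on every array. Of these markers 0 lay above that median on every array. The part of these markers' cells in the results below was not tested. In cultures measured in bulk, fewer cells of a type and less RNA per cell cannot be told apart.

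Of the 53 genes, 22 were lower in Dicer-deficient cells at an adjusted p of 0.05 in limma, which is 41.5%, and 0 were higher. At an unadjusted p of 0.05, 28 were lower and Atp5b was higher. Over all genes tested the percentages called were 8.6% lower and 8.48% higher. Respiratory transcripts are abundant and their genes short, and both properties moved the background. Of the 4031 genes whose mean signal reached the lower quartile of the respiratory genes' means, 7.83, 18.0% were called lower and 14.0% higher. Of the 700 of these whose genomic span was at most the respiratory genes' median of 6751 bp, 25.7% were called lower and 8.71% higher. The share of respiratory genes lay above each of these percentages, and these 2 narrower backgrounds were chosen after the data had been seen.

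The shift was moderate. The median change over the 53 genes was -0.21 on the log2 scale, and individual changes ran from -0.99 to 0.23, against a median of 0.01 over all genes. Both Dicer-deficient values lay below all 3 wild-type values for 35 of the 53 genes, where 19.9% of all genes showed this, and above them for 3, where 20.0% of all genes did. Among the short, bright genes 49.7% lay below. The called genes lay on 12 chromosomes, with at most 4 on any of them.

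**Figure D1:**
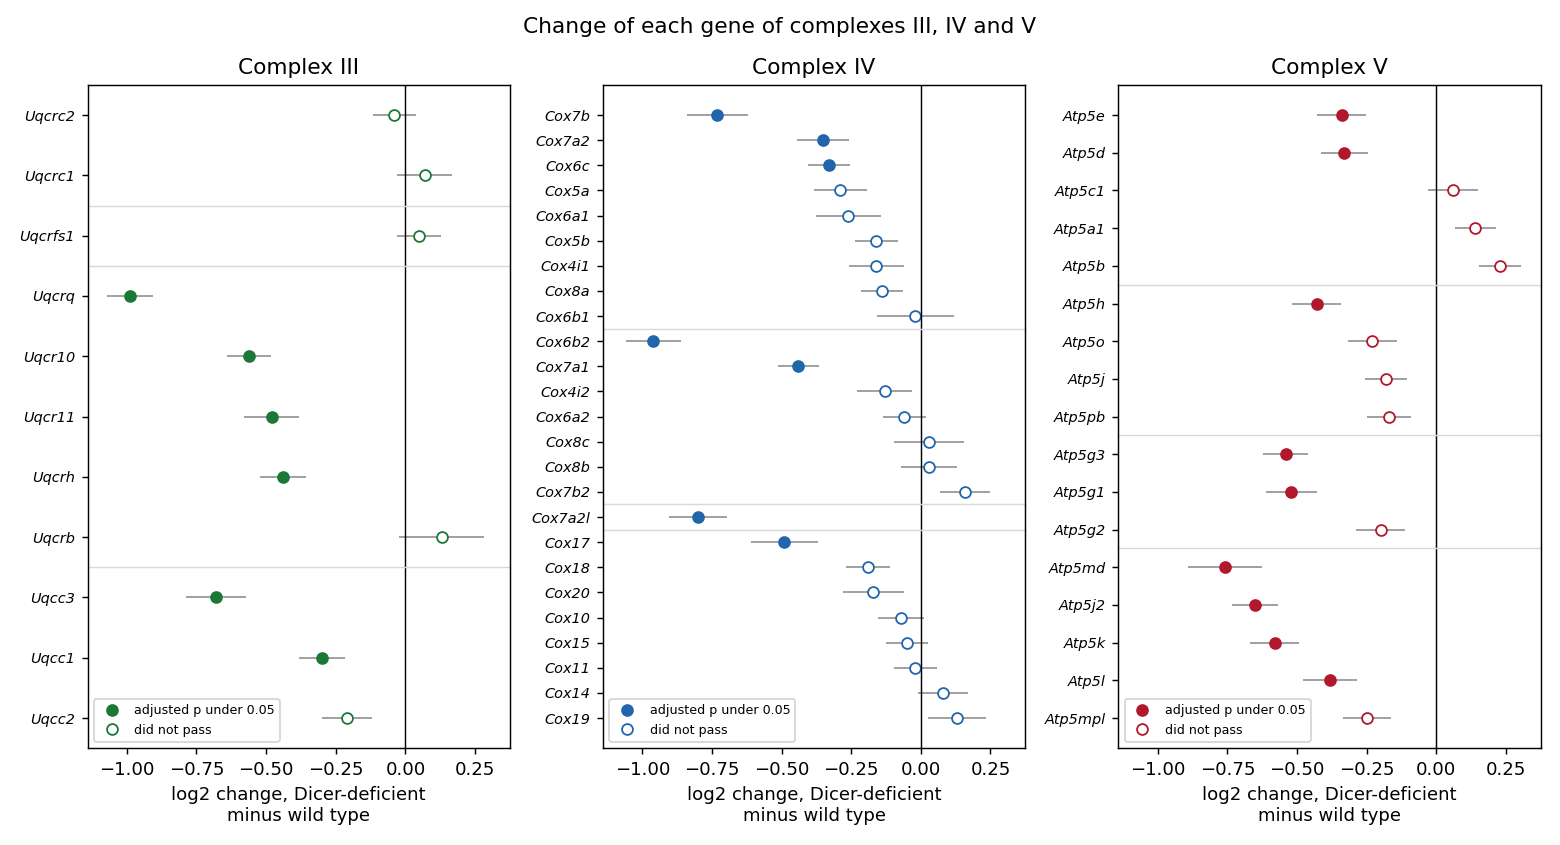
Log2 change of each gene (x axis, Dicer-deficient minus wild type) in complexes III, IV and V. Points are limma's estimates and bars their standard errors, from 2 Dicer-deficient and 3 wild-type arrays. Filled points passed an adjusted p of 0.05, and grey lines part the groups of subunits. All 22 filled points lie left of 0, and the core subunits Uqcrc1 and Uqcrc2 and the ATP synthase subunits Atp5a1, Atp5b and Atp5c1 lie between -0.04 and 0.23.

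By complex, 6 of 11 genes of complex III, 7 of 25 of complex IV and 9 of 17 of complex V were called lower (54.5%, 28.0% and 52.9%). All genes tested gave 8.6%, and the bright, short genes 25.7%, which is close to the share of complex IV. The median changes were -0.30, -0.16 and -0.33 on the log2 scale. The Dicer-deficient arrays did not carry the shift to the same degree. Against each gene's wild-type mean, the median over the 53 genes was -0.16 on Dicer-deficient array 1 and -0.25 on array 2, and it was 0.03, -0.02 and -0.02 on the wild-type arrays. Array 2 read below array 1 for 34 of the 53 genes, and for 9319 of all 19938 genes.

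**Figure D2:**
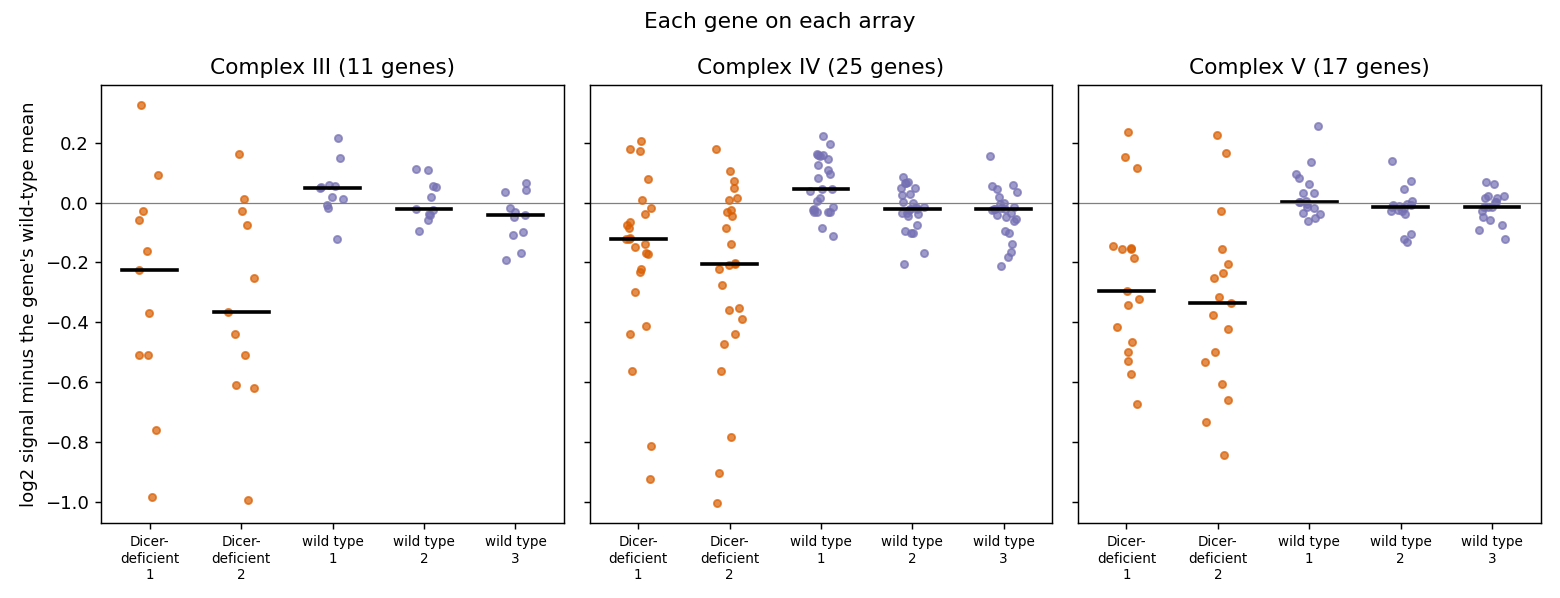
Log2 signal of each gene minus that gene's wild-type mean (y axis) on each of the 2 Dicer-deficient and 3 wild-type arrays, by complex. Points are genes, spread sideways to be visible, and black bars are medians. The medians of the Dicer-deficient arrays run from -0.37 to -0.12, and those of the wild-type arrays from -0.04 to 0.05.

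The upstream sequences of 6 of these genes are shown as examples. The 6 were picked by hand, with Cox6a1 as the only uncalled gene, and need not be typical of called or uncalled genes. RefSeq promoter sequences of build GRCm38.p6, which span 250 bases before and 50 after a start site, matched 41 of the 53 genes. They were searched on both strands for the letters of factors known to act on respiratory genes. GCGCA and GCGC with any 1 base between them stand for nuclear respiratory factor 1, CCGGAAG for ETS factors such as GABP, and AAGATGG for YY1. Shown are the 250 bases before the start site, 5′ to 3′ on the gene's strand, with matches in capitals. Uqcr11 (chr10:80406822-80407071, minus strand), Atp5h (chr11:115419920-115420169, minus) and Atp5k (chr5:108434400-108434649, minus) were called lower and hold a match. Cox6b2 (chr7:4753095-4753344, minus) and Cox7b (chrX:106015450-106015699, plus) were called lower and hold none. Cox6a1 (chr5:115348959-115349208, minus) was not called and holds 3.
Uqcr11: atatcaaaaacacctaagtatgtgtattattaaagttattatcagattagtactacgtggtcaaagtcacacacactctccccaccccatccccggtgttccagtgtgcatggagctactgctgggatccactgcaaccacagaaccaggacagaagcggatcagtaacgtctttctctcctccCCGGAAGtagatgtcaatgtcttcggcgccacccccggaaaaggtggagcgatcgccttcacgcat
Cox6b2: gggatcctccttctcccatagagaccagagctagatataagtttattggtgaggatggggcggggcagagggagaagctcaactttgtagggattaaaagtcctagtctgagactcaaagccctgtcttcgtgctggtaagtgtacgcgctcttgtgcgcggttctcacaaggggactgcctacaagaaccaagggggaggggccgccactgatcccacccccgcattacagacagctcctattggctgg
Cox7b: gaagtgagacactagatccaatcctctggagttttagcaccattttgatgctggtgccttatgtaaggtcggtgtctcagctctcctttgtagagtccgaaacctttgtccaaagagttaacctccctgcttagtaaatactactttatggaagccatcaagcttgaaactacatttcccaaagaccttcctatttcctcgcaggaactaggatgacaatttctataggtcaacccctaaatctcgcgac
Cox6a1: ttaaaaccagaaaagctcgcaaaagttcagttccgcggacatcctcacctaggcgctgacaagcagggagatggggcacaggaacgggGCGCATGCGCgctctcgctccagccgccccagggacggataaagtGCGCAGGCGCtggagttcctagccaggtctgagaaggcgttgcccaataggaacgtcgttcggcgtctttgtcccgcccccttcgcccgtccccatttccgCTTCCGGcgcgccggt
Atp5h: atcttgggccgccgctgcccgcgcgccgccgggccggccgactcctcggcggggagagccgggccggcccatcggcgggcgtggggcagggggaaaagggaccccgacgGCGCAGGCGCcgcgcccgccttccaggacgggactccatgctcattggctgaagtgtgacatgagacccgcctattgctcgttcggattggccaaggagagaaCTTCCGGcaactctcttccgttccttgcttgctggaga
Atp5k: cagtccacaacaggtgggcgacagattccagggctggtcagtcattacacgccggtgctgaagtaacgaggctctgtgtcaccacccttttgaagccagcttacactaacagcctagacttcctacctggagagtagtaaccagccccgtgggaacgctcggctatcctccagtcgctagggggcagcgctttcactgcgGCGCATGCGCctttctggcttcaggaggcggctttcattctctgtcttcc

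The nuclear respiratory factor 1 letters stood in the 300-base promoters of 9 of the 41 genes (22.0%), against 5.19% of all 27025 genes with a promoter. The ETS letters stood in 15 (36.6%, against 9.93%) and the YY1 letters in 6 (14.6%, against 7.28%). No match overlapped another in the sequences shown. Among the 19 called genes with a promoter, 3 held the first, 7 the second and 1 the third, against 6, 8 and 5 of the 22 genes that were not called. A match describes letters and not a bound site.

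In complex III 4 of the 5 small subunits fell, and the fifth, Uqcrb, and the 3 large subunits did not pass the test. Uqcrq, a small subunit known as the ubiquinone-binding protein, had signals of 8.30 and 8.29 on the Dicer-deficient arrays, against 9.34, 9.19 and 9.32 on the wild-type arrays. The groups lay almost a full log2 unit apart with no overlap. The change was -0.99 (SE 0.0822, adjusted p = 0.000329 in limma), a level 1.98-fold lower. Uqcr10, another small membrane subunit, had 8.63 and 8.52 in Dicer-deficient cells and 9.16, 9.16 and 9.10 in wild-type cells. It was 1.48-fold lower (adjusted p = 0.00284). Both of these calls held when any single array was left out.

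Uqcr11, the smallest subunit, read 7.72 and 7.79 in Dicer-deficient cells and 8.38, 8.19 and 8.12 in wild-type cells, 1.39-fold lower (adjusted p = 0.0147). Uqcrh, the acidic hinge protein beside cytochrome c1, read 8.73 and 8.59 in Dicer-deficient cells and 9.15, 9.08 and 9.07 in wild-type cells, 1.36-fold lower (adjusted p = 0.00985). The groups did not overlap for either gene. Leaving out wild-type array 2, or any Dicer-deficient array, ended both calls, with adjusted p from 0.0656 to 0.161 for Uqcr11 and from 0.051 to 0.0913 for Uqcrh.

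Uqcrb, the remaining small subunit, differed from these. Its signals were 10.78 and 10.38 in Dicer-deficient cells and 10.67, 10.43 and 10.26 in wild-type cells. The groups overlapped, with the Dicer-deficient arrays 0.40 apart, and the change of 0.13 did not pass (95% interval -0.23 to 0.48, adjusted p = 0.701 in limma). Its 3 probe sets had changes of 0.19, 0.13 and 0.09.

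The large subunits gave small changes. Uqcrc1 and Uqcrc2, the core proteins that descend from a mitochondrial processing peptidase, had changes of 0.07 (95% interval -0.16 to 0.30) and -0.04 (-0.22 to 0.14). Uqcrc1 read 10.94 and 11.13 in Dicer-deficient cells and 10.95, 11.08 and 10.87 in wild-type cells. The Rieske iron-sulphur protein Uqcrfs1, which takes the first electron from ubiquinol, read 7.99 and 7.91 in Dicer-deficient cells and 7.91, 7.84 and 7.94 in wild-type cells (change 0.05, interval -0.13 to 0.24). The groups overlapped for all 3 genes, and each interval leaves out a fall as large as that of Uqcr10.

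The assembly factors of complex III act on cytochrome b, the mitochondrially encoded subunit. Uqcc3 had 7.07 and 7.22 in Dicer-deficient cells, against 7.89, 7.94 and 7.66 in wild-type cells, a 1.61-fold lower level (adjusted p = 0.00457 in limma). Its call was lost without either Dicer-deficient array (adjusted p 0.0649 and 0.1). Uqcc1 had 7.60 and 7.46 in Dicer-deficient cells and 7.88, 7.79 and 7.81 in wild-type cells. It passed narrowly (change -0.30, adjusted p = 0.0472, and above 0.05 after median centring or with an intensity trend) and lost its call whichever array was left out (adjusted p from 0.0781 to 0.229). Uqcc2 had a change of -0.21 (adjusted p = 0.187), with 6.56 and 6.47 in Dicer-deficient cells, both below the wild-type values of 6.60, 6.78 and 6.79. Its other probe set had a change of 0.09, so its probe sets disagree in sign.

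In complex IV all 9 ubiquitous subunits had changes below 0, as had 9562 of all 19938 genes. Of the 9, 3 passed the test (33.3%), where 8.6% of all genes and 25.7% of the bright, short genes were called lower. The 9 carry Cox4i1, Cox5a, Cox5b, Cox6a1, Cox6b1, Cox6c, Cox7a2, Cox7b and Cox8a, the nuclear-encoded shell around the mitochondrially encoded catalytic core. Cox7b fell most, with 9.47 and 9.13 in Dicer-deficient cells and 10.08, 10.00 and 10.02 in wild-type cells (change -0.73, SE 0.11, adjusted p = 0.00383 in limma, 1.66-fold lower). The Dicer-deficient arrays stood 0.34 apart and both lay below the wild-type range. The call held whichever array was left out, and the gene's other probe set had a change of -0.68.

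Cox7a2 and Cox6c were the other ubiquitous subunits called. Cox7a2 read 8.68 and 8.44 in Dicer-deficient cells and 8.89, 8.90 and 8.95 in wild-type cells, 1.28-fold lower (adjusted p = 0.0387). It lost its call without any 1 of the 5 arrays (adjusted p from 0.0563 to 0.198). Cox6c read 10.86 and 10.80 in Dicer-deficient cells and 11.13, 11.21 and 11.14 in wild-type cells, 1.26-fold lower (adjusted p = 0.0241). It kept its call only without wild-type array 3 (otherwise 0.0564 to 0.135), and its second probe set had a smaller change of -0.15. Quantile normalizing again also ended both calls, and averaging its probe sets ended that of Cox6c.

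The other ubiquitous subunits had changes from -0.29 to -0.02 that did not pass. Cox5a, which with Cox4i1 is among the first nuclear subunits to join the core, read 10.15 and 10.02 in Dicer-deficient cells and 10.50, 10.34 and 10.28 in wild-type cells (change -0.29, adjusted p = 0.0844). Cox6b1 read 10.30 and 9.92 in Dicer-deficient cells and 10.29, 10.13 and 9.96 in wild-type cells, a change of -0.02 (95% interval -0.34 to 0.31). The groups overlapped. Dicer-deficient array 2 was below array 1 for 8 of the 9 subunits, with a median difference (array 2 minus array 1) of -0.24 over the 9.

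Several complex IV subunits exist in ubiquitous and tissue-restricted forms, encoded by separate genes. In adult tissues Cox6a2, Cox7a1 and Cox8b are forms of heart and skeletal muscle, Cox6b2, Cox7b2 and Cox8c forms of the testis, and Cox4i2 a form found mainly in lung. Of these 7 genes Cox6b2 and Cox7a1 fell, and the rest did not pass. Cox6b2 had 6.55 and 6.47 in Dicer-deficient cells, against 7.63, 7.37 and 7.42 in wild-type cells. This was a change of -0.96 (SE 0.0992, adjusted p = 0.00076 in limma), a level 1.95-fold lower, and the call held whichever array was left out. Its ubiquitous counterpart Cox6b1 had the change of -0.02 given above, but no test of the difference between the isoforms was made.

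Cox7a1 had 7.07 and 7.07 in Dicer-deficient cells and 7.55, 7.49 and 7.49 in wild-type cells, 1.36-fold lower (adjusted p = 0.0065, and 0.0635 and 0.0651 without a Dicer-deficient array). Cox7a1 and Cox7a2, its ubiquitous counterpart, thus both fell. Cox4i2 read 6.24 and 6.33 in Dicer-deficient cells and 6.33, 6.34 and 6.57 in wild-type cells. Cox6a2 read 5.39 and 5.43 in Dicer-deficient cells and 5.46, 5.43 and 5.53 in wild-type cells, around the median of all values. Cox7b2, Cox8b and Cox8c lay between 3.54 and 5.47 over the 5 arrays, around or below the median of all values, so expression of these genes was not established.

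**Figure D3:**
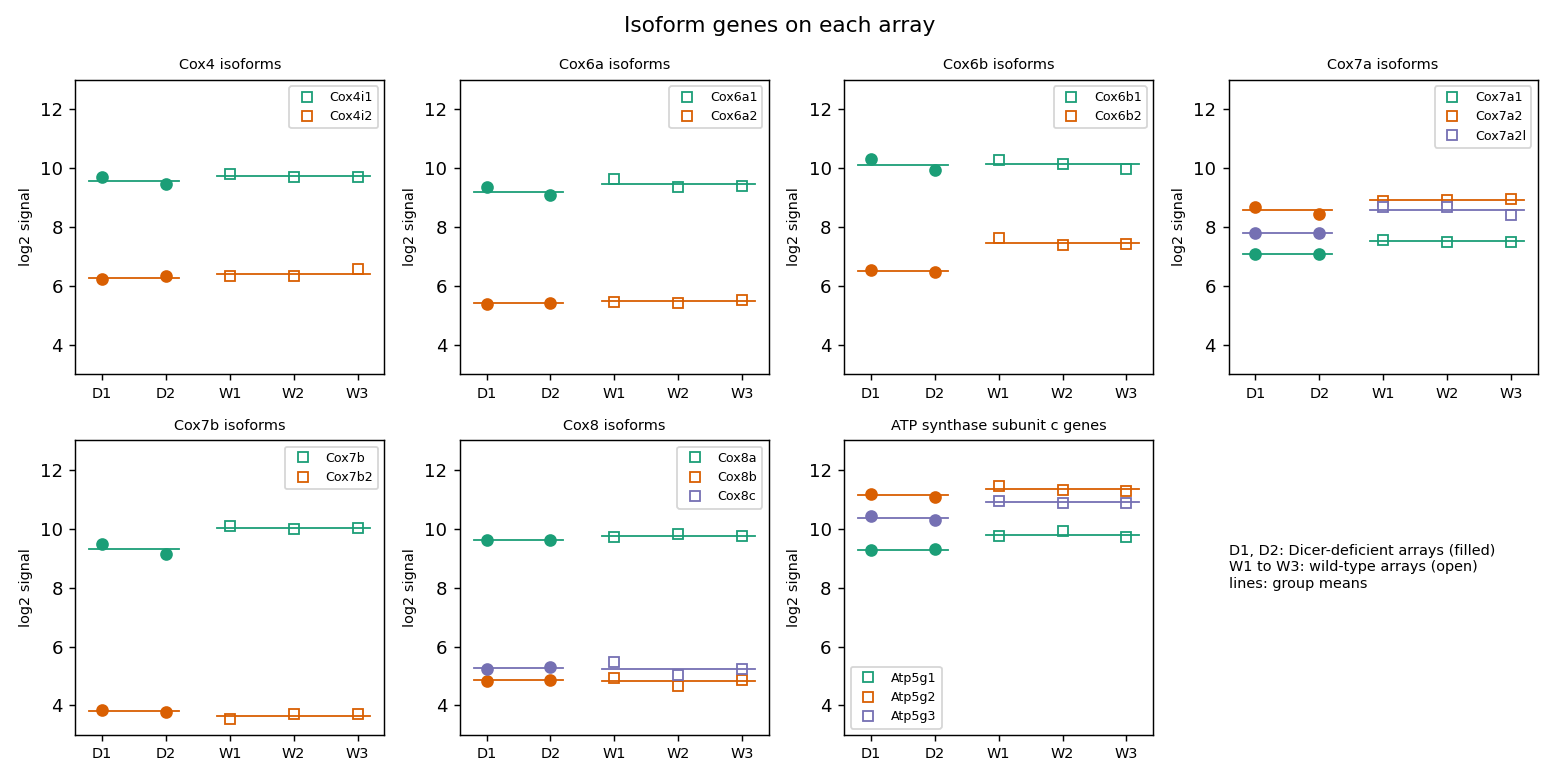
Log2 signal (y axis) of isoform genes of complex IV and of the 3 genes of ATP synthase subunit c on each array. D1 and D2 are Dicer-deficient arrays (filled) and W1 to W3 wild-type arrays (open), with lines at the group means. Cox6b2 reads 6.47 to 6.55 in Dicer-deficient cells and 7.37 to 7.63 in wild-type cells, while Cox6b1 overlaps between the groups.

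Cox7a2l, related in sequence to the Cox7a isoforms, is a factor described as joining complexes III and IV into supercomplexes. It read 7.78 and 7.81 in Dicer-deficient cells and 8.69, 8.68 and 8.41 in wild-type cells, 1.74-fold lower (change -0.80, SE 0.104, adjusted p = 0.00215 in limma). Its second probe set had a change of -0.78. Leaving out a Dicer-deficient array ended the call (adjusted p 0.0623 to 0.0691).

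Of 8 assembly factors of complex IV 1 passed the test (12.5%), where 8.6% of all genes and 18.0% of the bright genes were called lower. Cox17, the chaperone that carries copper to the complex in the intermembrane space, read 7.66 and 7.51 in Dicer-deficient cells and 8.22, 8.14 and 7.86 in wild-type cells. It was 1.40-fold lower (adjusted p = 0.0297) and kept its call only without wild-type array 3 (otherwise 0.106 to 0.265). Cox10 and Cox15, enzymes of heme A synthesis, had changes of -0.07 and -0.05. Cox11, which inserts copper, had -0.02, and Cox14, which acts on the newly made first subunit, had 0.08. Cox18, which inserts the second mitochondrially encoded subunit into the membrane, had -0.19 (adjusted p = 0.165). Cox20 had -0.17, and Cox19, another factor of copper delivery, had 0.13. Their 95% intervals lay within -0.43 and 0.37.

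In the ATP synthase the small subunits of the membrane sector and the genes of the c-ring carried 6 of the 9 calls. The alpha and beta subunits of the catalytic head did not pass, though they read above wild type on both Dicer-deficient arrays. Atp5a1 and Atp5b, the alpha and beta subunits whose interfaces make ATP, read 12.56 and 12.61, and 12.79 and 12.78, in Dicer-deficient cells. In wild-type cells they read 12.44, 12.43 and 12.46, and 12.52, 12.60 and 12.54. Neither overlapped between the groups. Of all genes 20.0% lay above all wild-type arrays in this way, and of the bright genes 28.1%. Their changes of 0.14 (adjusted p = 0.28) and 0.23 (adjusted p = 0.0801 in limma) did not pass, and Atp5b passed when the arrays were quantile normalized again (0.30, adjusted p = 0.0247) or with an intensity trend (adjusted p = 0.00905).

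Atp5c1, the rotating gamma subunit, read 11.92 and 11.74 in Dicer-deficient cells and 11.73, 11.74 and 11.83 in wild-type cells. The change was 0.06 (95% interval -0.14 to 0.27). Atp5d and Atp5e, the small delta and epsilon subunits of the central stalk, did pass. Atp5d read 10.33 and 10.51 in Dicer-deficient cells and 10.75, 10.74 and 10.75 in wild-type cells, 1.25-fold lower (adjusted p = 0.0355). Atp5e read 7.82 and 7.74 in Dicer-deficient cells and 8.20, 8.01 and 8.14 in wild-type cells, 1.26-fold lower (adjusted p = 0.0371). Both calls were lost whichever array was left out (adjusted p from 0.0626 to 0.183 and from 0.0583 to 0.222), and that of Atp5d when the arrays were quantile normalized again.

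The proton-carrying c-ring is built from copies of subunit c, which Atp5g1, Atp5g2 and Atp5g3 encode with the same mature protein. Atp5g3 read 10.43 and 10.29 in Dicer-deficient cells and 10.93, 10.89 and 10.87 in wild-type cells, 1.45-fold lower (adjusted p = 0.00396 in limma). Leaving out Dicer-deficient array 2 ended the call (0.056). Atp5g1 read 9.27 and 9.30 in Dicer-deficient cells and 9.75, 9.94 and 9.71 in wild-type cells, 1.43-fold lower (adjusted p = 0.0085, and 0.0981 to 0.115 without a Dicer-deficient array). Atp5g2 read 11.19 and 11.09 in Dicer-deficient cells and 11.44, 11.32 and 11.27 in wild-type cells (change -0.20, adjusted p = 0.177). All 3 genes were below wild type on both Dicer-deficient arrays, as were 19.9% of all genes and 49.7% of the bright, short genes.

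Of the 5 small subunits of the membrane sector, which sit around the c-ring and tie the enzyme into dimers, 4 fell. Atp5md read 9.97 and 9.80 in Dicer-deficient cells and 10.90, 10.51 and 10.52 in wild-type cells, 1.69-fold lower (change -0.76, SE 0.133, adjusted p = 0.0076). Its other probe sets had changes of -0.70 and -0.68. Atp5j2 read 10.22 and 10.06 in Dicer-deficient cells, against 10.78, 10.79 and 10.81 in wild-type cells, 1.57-fold lower (adjusted p = 0.00184). Its call held without any array.

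Atp5k, a subunit of the dimer interface, read 8.08 and 7.92 in Dicer-deficient cells and 8.52, 8.57 and 8.65 in wild-type cells, 1.49-fold lower (adjusted p = 0.00394), and leaving out Dicer-deficient array 2 ended the call (0.0642). Atp5l read 8.61 and 8.53 in Dicer-deficient cells and 9.09, 8.83 and 8.94 in wild-type cells, 1.30-fold lower (adjusted p = 0.0331). Its call was lost whichever array was left out (adjusted p from 0.0549 to 0.231), and its 6 probe sets had changes from -0.38 to -0.35. Atp5md lost its call without a Dicer-deficient array (adjusted p 0.0982 to 0.142). Atp5mpl, the fifth of these subunits, had a change of -0.25 (adjusted p = 0.0992).

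The peripheral stalk, which holds the catalytic head still while the ring turns, gave 1 call among 4 genes. Atp5h read 10.44 and 10.23 in Dicer-deficient cells and 10.77, 10.77 and 10.75 in wild-type cells, 1.35-fold lower (adjusted p = 0.0146 in limma). Leaving out wild-type array 1, wild-type array 2 or Dicer-deficient array 2 ended the call (adjusted p from 0.0582 to 0.0999). Atp5o, Atp5j and Atp5pb had changes of -0.23, -0.18 and -0.17 (adjusted p = 0.132, 0.161 and 0.206). For each of the 4 genes both Dicer-deficient values lay below the wild-type range, as they did for 19.9% of all genes and 49.7% of the bright, short genes.

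Of the 53 genes 13 had several probe sets, and Uqcc2 was the gene whose probe sets differed in sign. With all probe sets tested together in limma, some other probe sets of called genes did not pass. These belonged to Uqcr11 (adjusted p = 0.0746), Cox6c (0.321), Atp5h (0.0597) and Atp5l (0.0517, 0.0538 and 0.0636). The remaining other probe sets of called genes passed. Probe sets of 1 gene may share probes, and many respiratory genes have processed pseudogenes, whose near-identical copies cannot be told apart from the gene here.

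Other genes of the same complexes, outside the naming rule, were examined from fixed lists. For complex III 1 of 4 was called, the Rieske protein's translocase Bcs1l at -0.41, while the cytochrome c1 gene Cyc1 had -0.28 (adjusted p = 0.0961). For complex IV 4 of 16 were called lower and 0 higher in limma, among them Taco1, which activates translation of the first mitochondrially encoded subunit (-0.87), and Slirp, which stabilises mitochondrial mRNAs (-0.64). Cmc2 (-0.41) and Fastkd3 (-0.35) were the others. For complex V 1 of 4 was called, Atpaf2, the chaperone of the alpha subunit, at -0.62. For comparison, 8.6% of all genes tested were called lower, 18.0% of the bright genes and 25.7% of the bright, short genes. Whether these lists differed from those backgrounds was not tested. Slirp kept its call without Dicer-deficient array 1 and lost it without array 2 (adjusted p 0.0579). The other 5 lost theirs without either Dicer-deficient array, and Bcs1l, Cmc2 and Fastkd3 also without 1 or more wild-type arrays, with adjusted p from 0.053 to 0.226.

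Cytochrome c, the carrier between complexes III and IV, also has a testis form. That gene, Cyct, had 6.56 and 6.23 in Dicer-deficient cells, against 7.33, 7.80 and 7.67 in wild-type cells (change -1.20, SE 0.156, adjusted p = 0.00207), and its call was lost when Dicer-deficient array 2 was left out (0.0739). The somatic gene Cycs had -0.20 (adjusted p = 0.154). Cyct and Cox6b2 are both testis forms in adult tissues, while of the 7 male germ cell markers 0 lay above the median of all values on every array and 0 were called by limma.

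Among 18 regulators of mitochondrial biogenesis 4 fell and 2 rose. The share that fell was 22.2%, against 8.6% of all genes and 18.0% of the bright genes. Of all genes 8.48% rose, and of the bright genes 14.0%. Tfam, which packages mitochondrial DNA and starts its transcription, had 7.30 and 7.33 in Dicer-deficient cells and 8.25, 8.23 and 7.93 in wild-type cells (change -0.82, adjusted p = 0.00252 in limma, and 0.0696 to 0.0777 without a Dicer-deficient array). Ssbp1, the mitochondrial single-strand DNA-binding protein, had 9.05 and 9.00 in Dicer-deficient cells and 9.67, 9.60 and 9.66 in wild-type cells (change -0.62, adjusted p = 0.00162). Tfb1m and Twnk also fell, and Gabpb2 and Tfb2m rose. Gabpb2, a partner subunit of GABP, had a change of 0.82 (adjusted p = 0.00157, and 0.0551 to 0.0556 without a Dicer-deficient array). Tfb1m, Twnk and Tfb2m each lost their call in 4 or 5 of the 5 fits that left out 1 array. The factors whose letters were searched above had changes of 0.02 (Nrf1), -0.09 (Gabpa) and 0.03 (Yy1), and none of these passed.

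Other parts of the respiratory system were read beside these. Of 34 complex I subunits 9 were called lower and 0 higher in limma (26.5%, median change -0.18), and of 8 genes of complex II 4 were lower and 0 higher (median -0.20). Of 77 mitochondrial ribosomal proteins 28 were lower and 2 higher (36.4%, median -0.19). Cytosolic ribosomal proteins, short and abundant transcripts outside the mitochondrion, had 15 lower and 2 higher of 59 (25.4%, median -0.20). Over all genes tested 8.6% were called lower and 8.48% higher, and of the bright, short genes 25.7% and 8.71%. The shares of complex I and of the cytosolic ribosomal proteins called lower thus lay close to that of the bright, short genes. The tricarboxylic acid cycle, which feeds the chain with electrons, had a median change above 0. Of its 17 genes 2 were lower, Sucla2 and Suclg2 (-0.41 and -0.39), and 3 higher, Idh3b, Mdh2 and Cs (0.52, 0.48 and 0.39). Of the bright genes 18.0% were called lower and 14.0% higher. Sucla2 and Suclg2 lost their calls when wild-type array 1 or 2 was left out. Idh3b and Mdh2 lost theirs when either Dicer-deficient array was left out, which leaves 1 array in that group. The median of the cycle was 0.24. Its citrate synthase Cs had 11.09 and 11.13 in Dicer-deficient cells and 10.67, 10.70 and 10.78 in wild-type cells (change 0.39, adjusted p = 0.0126, and 0.0635 to 0.1 without wild-type array 2 or a Dicer-deficient array). No difference between these groups of genes was tested.

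**Figure D4:**
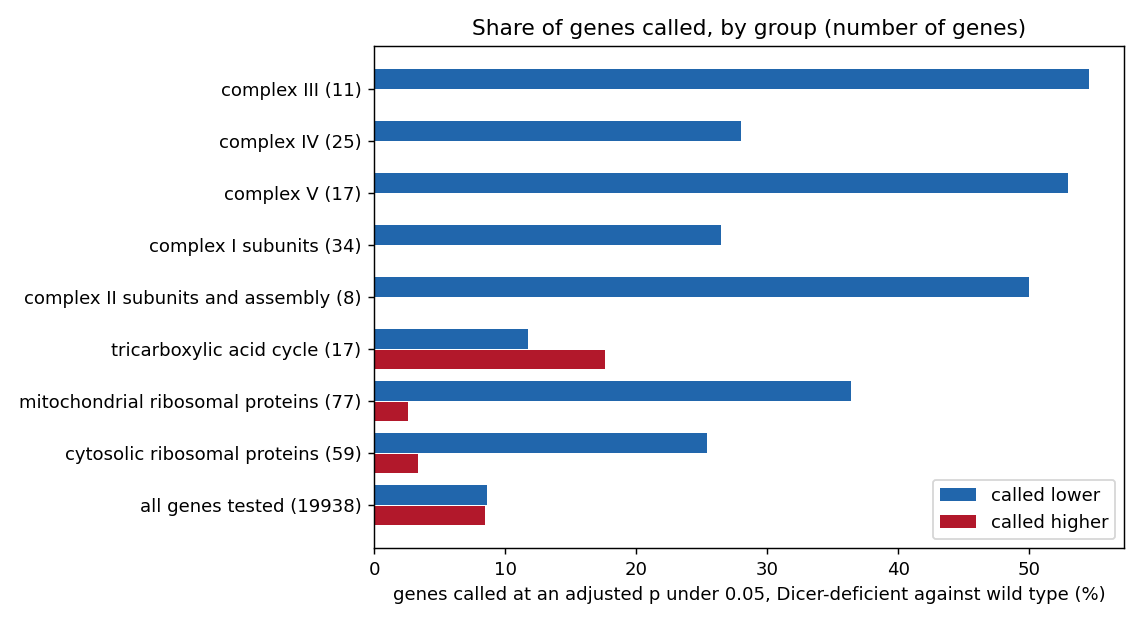
Percentage of genes called lower (blue) and higher (red) in Dicer-deficient against wild-type cells at an adjusted p of 0.05 (x axis), by group of genes with the number of genes in brackets. Complexes III and V reach 54.5% and 52.9% called lower, complex IV 28.0%, and all genes tested 8.6%.

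Of the 22 called genes, Uqcrq, Uqcr10, Cox7b, Cox6b2 and Atp5j2 kept their call whichever array was left out, and 12 kept it without each wild-type array in turn. All 22 kept their direction under every alternative run. The number called lower ranged from 5 to 17 as single arrays were left out, 8 and 5 without Dicer-deficient array 1 and array 2, which leave that group with 1 array.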

How the data were processed

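The authors deposited a table of log2 signals for 35556 probe sets on each of the 5 arrays. The labels' protocols name biotinylated cRNA made from total RNA for Affymetrix arrays. Background correction, probe summary, normalization and log base are not given in the sources used here. The values were read as log2 because of their range, and another base would rescale every change but no p-value. Groups were taken from the array titles.

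Names came from the annotation of the platform, in which 21789 had 1 symbol, 1621 several and 12146 none, and for each of 19938 genes the probe set with the highest mean was used. The test was limma 3.58.1 in R 4.3.3 (lmFit and eBayes, Dicer-deficient minus wild type, no covariate), with Benjamini-Hochberg adjustment over all 19938 genes at 0.05. It had 3 residual and 4.54 prior degrees of freedom. The 10 ways to split the arrays give an exact permutation test no p under 0.1 (two-sided), so none was run. The number of arrays limits the precision.

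The genes described and all lists, and the bright and short backgrounds, were chosen with earlier results of these data known. Every called gene is named. Values on every array are given for the largest changes of each complex, isoform genes and those furthest above 0. Beyond the rule, they are given for the remaining called genes and several uncalled ones. Other lists were to name up to 4 called genes, and more are named for the biogenesis regulators and the tricarboxylic acid cycle. Alternatives were a repeated quantile step, centring on array medians, a filter on dim genes, other uses of the probe sets, array weights, a trend of variance with intensity, robust moderation, a block on replicate number, and the omission of each array. Figures used Python 3.11.15 with matplotlib 3.10.9.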

Additional observations from a re-analysis of the deposited data

How the results depend on the processing

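The 53 genes were refitted under each alternative, except that the filter on dim genes left 50 of them, without Cox7b2, Cox8b and Cox8c. The count called lower, 22, stayed within 19 to 22 under the alternatives of normalization, filter, probe set use, trend, robust moderation and array weights. With the replicate number as a block it was 5 in all, with 2 in complex III, 2 in complex IV and 1 in complex V. The titles show only a shared number. Same-numbered arrays correlated at 0.049 and 0.005 over all genes after their group means were removed. The deviations of the 2 Dicer-deficient arrays then mirror each other, so this check cannot decide whether same-numbered arrays share a batch. The block leaves few degrees of freedom. As each array was left out, the count called lower ranged from 5 to 17, with 2 to 5 in complex III, 2 to 6 in complex IV and 1 to 6 in complex V. The count called higher, 0, was 1 (Atp5b) after quantile normalization and 1 with an intensity trend. The median change of -0.21 was -0.24 without dim genes, -0.24 with the replicate block, and -0.25 to -0.16 as each array was left out. Changes of sign were seen for genes with a change near 0 that did not pass. After quantile normalization Cox6b1 had 0.03 and Uqcrc2 0.01. As each array was left out Cox6b1 ranged from -0.21 to 0.17, Cox8b from -0.06 to 0.08, Cox8c from -0.07 to 0.14, Atp5c1 from -0.03 to 0.15, Cox10 from -0.15 to 0.01, Cox11 from -0.06 to 0.02, Cox14 from -0.03 to 0.18, Uqcrb from -0.07 to 0.33 and Uqcrc1 from -0.03 to 0.16. The cause of these changes was not tested. Without a Dicer-deficient array the other is assumed to vary like the wild-type arrays. Signal over background was not analysed here, which limits the dim isoforms.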
